A study of Mus musculus with 192 samples.

Results

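Icam1, Vcam1, Itga5, Itgb3 and Cd44 encode cell surface molecules with which a cell holds on to other cells or to the matrix. They are 5 of the 95 genes that were measured by 96 TaqMan assays in single cells sorted from mouse wounds, and they were found by their gene names in the deposited table, with 1 assay each (Mm00516023_m1, Mm01320970_m1, Mm00439797_m1, Mm00443980_m1 and Mm00681165_m1). The study joined WT mice, or mice that lack Cxcl12 in endothelial cells (EKO), by parabiosis to GFP-positive donors, so that the pair shared a circulation. Lineage-negative, GFP-positive cells were then sorted from dorsal wounds of the recipient and analysed to compare the progenitors recruited in both genotypes. The genotype therefore names the recipient, and GFP marks cells that came from the donor. The sources used here do not give the Cre driver, the day after wounding, the number of animals or the antigens of the lineage gate.

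The 192 cells form set A and set B, each with 48 WT cells (cells 1 to 48) and 48 EKO cells (cells 49 to 96). The labels do not tell animals apart, and each genotype was treated as a single sample. No p-value was computed, the intervals cover counting error over cells only, and genotype cannot be told apart from the cell numbers within a set. A value is a Ct, the cycle at which a reaction crosses its threshold. A lower Ct is a higher level, 1 cycle is about 1 doubling, and 40 means no amplification. A gene was detected in a cell at a Ct below 40. Ct of different assays were not compared as levels, because assays differ in efficiency. A difference counted as called when it reached 10 percentage points of cells, or 1 cycle of the median Ct with at least 10 detecting cells on each side, and had the same sign in both sets.

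Leukocytes that leave the blood roll, arrest and crawl on vessel walls, and arrest depends on integrins of the leukocyte that grip immunoglobulin-family ligands on the endothelium. Icam1 is the ligand of the leukocyte integrins LFA-1 and Mac-1, and Vcam1 is the ligand of an integrin carried by lymphocytes, monocytes and haematopoietic progenitors. Both ligands are induced by inflammatory cytokines and are also made by fibroblasts. Itga5 is the alpha chain of the main fibronectin receptor, and Itgb3 is the beta chain of the vitronectin receptor and of the fibrinogen receptor of platelets. Cd44 is the hyaluronan receptor of leukocytes and mesenchymal cells.

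The sequences 250 bases upstream of the gene starts are shown for 2 of the 5 genes, Icam1 because its share of detecting cells differed most between the genotypes and Itga5 because its Ct did. They are from RefSeq, build GRCm38.p6, given 5′ to 3′ in the direction of the gene. Icam1 lies on chromosome 9 (window chr9:21015690-21015939, plus strand) and Itga5 on chromosome 15 (chr15:103366792-103367041, minus strand). Capitals mark matches, on either strand, to 4 short words that were searched: GGAAANTCC for NF-kappaB, TTCNNNGAA for STAT factors, GGGCGG for a GC box and TGANTCA for AP-1.

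Icam1: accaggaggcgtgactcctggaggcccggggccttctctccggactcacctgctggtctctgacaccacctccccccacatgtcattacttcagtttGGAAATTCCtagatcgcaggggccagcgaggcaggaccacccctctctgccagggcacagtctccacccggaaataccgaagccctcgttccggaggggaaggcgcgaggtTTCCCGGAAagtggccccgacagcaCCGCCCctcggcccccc

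Itga5: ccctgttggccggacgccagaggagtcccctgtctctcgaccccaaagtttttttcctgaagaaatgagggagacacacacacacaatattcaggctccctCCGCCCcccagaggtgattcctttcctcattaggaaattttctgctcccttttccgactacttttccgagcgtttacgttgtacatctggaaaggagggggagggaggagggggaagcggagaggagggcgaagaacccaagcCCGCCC

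The Icam1 window holds the NF-kappaB word from 153 to 145 bases before the start, the STAT word from 42 to 34 bases before it and a GC box on the other strand from 17 to 12 bases before it. The NF-kappaB word is in 1.07% of the 32851 windows of this length in the table, the STAT word in 7.02% and the GC box in 32.7%. The Itga5 window holds 2 GC boxes and none of the other words. The Cd44 window on chromosome 2 holds none of the 4 words, and the AP-1 word, found in 6.75% of all windows, is in none of these 3 windows. A match is a run of letters and not a shown binding site. Nfkb1, which encodes an NF-kappaB subunit, was detected in 140 of 170 cells, and its relation to Icam1 was not tested.

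Cells were kept when they detected at least 10 of the 96 assays. This left 93 WT cells (48 of set A and 45 of set B) and 77 EKO cells (39 and 38), and set aside 3 WT and 19 EKO cells. Of the 22 cells set aside, 1 detected Icam1 and 1 detected Cd44, and none detected Vcam1, Itga5 or Itgb3, which allows a share of up to 13.6% by 3 counts of 22 (exact upper bound 15.4%). The kept cells detected a median of 21 assays in WT and 34 in EKO, and shares of the genes moved with this yield of a cell. Of the 75 cells with 10 to 23 assays 2.67% detected Vcam1 and 14.7% Icam1, of the 36 with 24 to 39 assays 19.4% and 63.9%, and of the 59 with 40 or more 74.6% and 78%. Collagen-high cells, with a Col1a1 Ct below 16, numbered 46, and the 71 other cells that detected Ptprc, the pan-leukocyte gene CD45, are called Ptprc-detecting. The other 53 cells met neither rule. The labels call the cells progenitors: Kit was detected in 33 of the 170 cells, Pdgfra in 52 and the endothelial gene Cdh5 in 13. Some other markers of blood and endothelial cells were more frequent than Kit: Runx1 was detected in 83, Cd48 in 68 and Pecam1 in 50. Others were less frequent than Kit: Kdr and Tek were detected in 23 each, and Itgam, Adgre1 and Flt1 in 14 each. Nos3 was detected in 10, Tie1 in 8 and Gata2 in 7. All 46 collagen-high cells detected the mesenchymal gene Pdgfra, against 2 of the 71 Ptprc-detecting cells. In turn 31 of the 46 also detected Ptprc, with a median Ct of 16.67 against 17.33 in the Ptprc-detecting class. The macrophage gene Adgre1 was found in 0 of 46 and 13 of 71. The blood-lineage gene Runx1 was found in 45 of 46 and 33 of 71. Of the endothelial markers, Pecam1 was found in 20 and 23 of these cells, Tek in 15 and 4 and Kdr in 13 and 6. Cdh5 was found in 2 and 6, Flt1 in 3 and 7, Nos3 in 0 and 6 and Tie1 in 0 and 4.

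Between the cell classes, Vcam1 and Itga5 stood apart by the largest margins, and Cd44 was near universal in both but at different levels. Vcam1 was detected in 38 of 46 collagen-high cells (82.6%, exact 95% interval 68.6 to 92.2) and in 12 of 71 Ptprc-detecting cells (16.9%, 9.05 to 27.7). Itga5 was detected in 43 of 46 (93.5%, 82.1 to 98.6) and in 15 of 71 (21.1%, 12.3 to 32.4). The intervals of the classes do not overlap for either gene, nor for Itgb3 and Icam1 below. The share of all assays without such overlap is not given here. Itgb3 was found in 36 of 46 (78.3%, 63.6 to 89.1) and 22 of 71 (31%, 20.5 to 43.1). Icam1 had the same 36 of 46 and, among Ptprc-detecting cells, 31 of 71 (43.7%, 31.9 to 56). Cd44 was detected in all 46 collagen-high cells and in 66 of 71 Ptprc-detecting cells (93%). In the cells of neither class the shares were lowest for all 5 genes, from 5.66% for Vcam1 (3 of 53) to 50.9% for Cd44 (27 of 53).

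The differences between collagen-high and Ptprc-detecting cells were 34.6 points for Icam1, 65.7 for Vcam1, 72.4 for Itga5, 47.3 for Itgb3 and 7.04 for Cd44. So 4 of the 5 genes were called higher in collagen-high cells, but so were 55.3% of the 94 assays tested, with 7.45% lower. A collagen-high cell detected a median of 52 assays and a Ptprc-detecting cell 28. The median difference was 47.3 points over the 5 genes and 15.4 over the 94 assays. To compare cells of like yield, the least yield of any collagen-high cell, 36 assays, was required of both classes. It was chosen after the data were seen and left 46 and 19 cells, with medians of 52 and 39 assays. Vcam1 was then at 82.6% against 36.8% (7 of 19) and Itga5 at 93.5% against 42.1% (8 of 19), with both sets in the same direction. Icam1 and Itgb3 were each at 78.3% against 78.9% (15 of 19), and Cd44 was found in every cell of both classes. At this limit 34% of the assays were called higher in collagen-high cells and 17% lower.

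**Figure D1:**
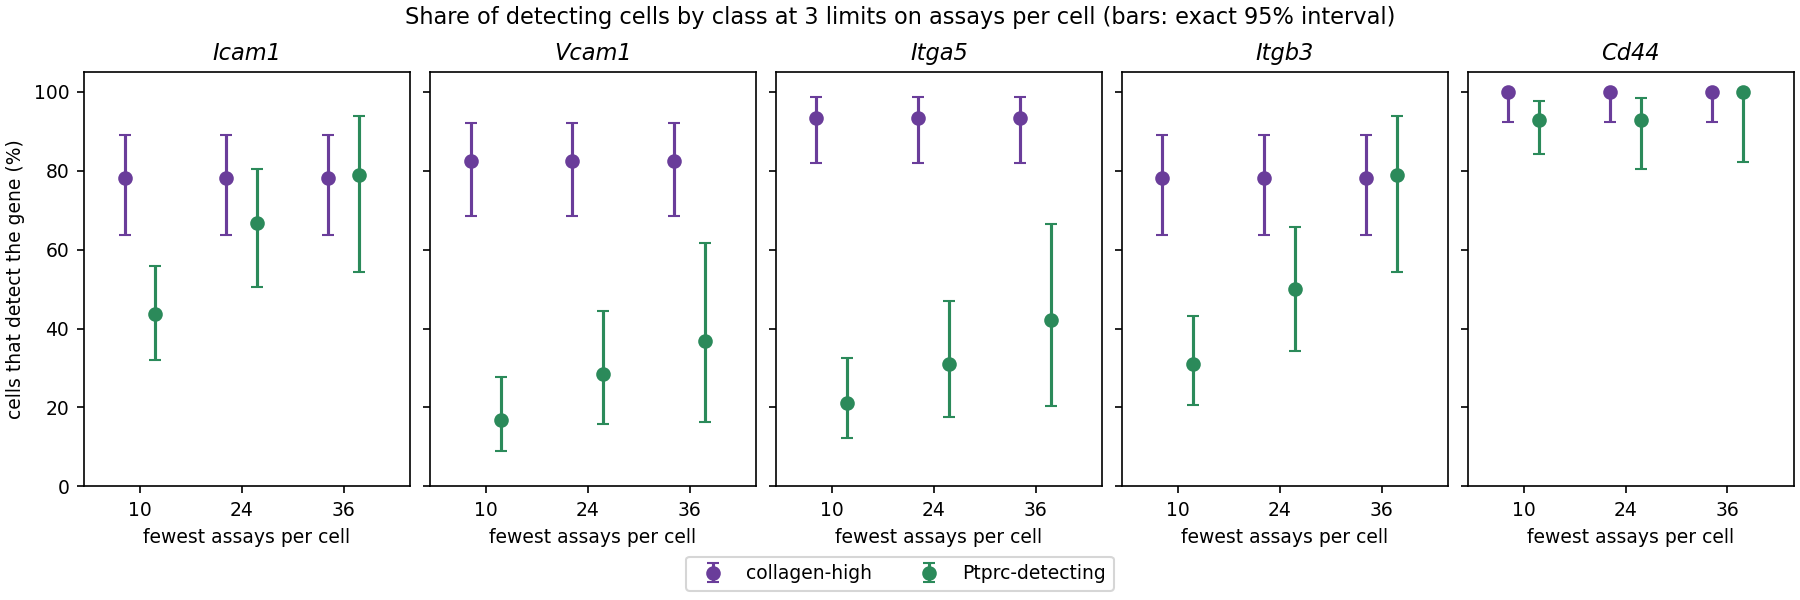
Share of cells (percent, y axis) that detect each gene in collagen-high (purple) and Ptprc-detecting cells (green), at limits of at least 10, 24 and 36 assays per cell (x axis); points are shares and bars exact 95% intervals. The green points of Icam1 and Itgb3 climb to 78.9%, level with the purple ones at 78.3%, while those of Vcam1 and Itga5 end at 36.8% and 42.1%.

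Among all detecting kept cells, though not among those with at least 24 assays, Cd44 gave the largest difference in level between the classes. Its Ct ran from 12.59 to 20.29 with a median of 14.39 ± 1.69 (SD, 46 cells) in collagen-high cells, and from 10.79 to 22.04 with a median of 17.89 ± 2.12 (SD, 66 cells) in Ptprc-detecting cells. Most collagen-high cells thus had more Cd44 signal in raw Ct than most Ptprc-detecting ones, though the ranges overlap. The Cd44 Ct also varied with the number of assays detected (Spearman rho -0.80 over 139 cells, -0.70 over the 66 Ptprc-detecting cells). Its rho with Actb was 0.61. The part of yield in the class difference was not tested. Itga5 had median Ct of 17.26 ± 2.33 (SD, 43 cells) and 20.32 ± 2.77 (SD, 15 cells), and Icam1 of 21.93 ± 2.12 (SD, 36 cells) and 23.45 ± 1.69 (SD, 31 cells). The median differences were -3.50 cycles for Cd44, -3.06 for Itga5 and -1.52 for Icam1, all called earlier in collagen-high cells, as were 51.1% of the 47 assays tested, with 6.38% called later. Vcam1 differed by -1.92 cycles, with opposite signs in the sets (4.06 in set A, -2.88 in set B). Itgb3 differed by -0.15 cycles, which pools opposite differences: the collagen-high and Ptprc-detecting medians were 17.58 and 19.36 in WT, and 18.54 and 17.60 in EKO. With at least 24 assays the Itga5 difference was the largest of the 5 genes, at -2.95 cycles against -2.24 for Cd44. The median of the 46 assays tested there was -0.83. At the limit of 36 assays the Cd44 difference was -1.87 cycles, still called, and that of Icam1 was -1.26 with opposite signs in the sets (0.13 and -2.32) and was not called. There Itga5 differed by -1.02 cycles, with too few Ptprc-detecting cells for a call. Of the 35 assays tested 31.4% were earlier and 14.3% later at this limit.

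Collagen-high cells with and without Ptprc had similar shares of Vcam1, Itga5 and Icam1. Vcam1 was detected in 25 of the 31 collagen-high cells with Ptprc and in 13 of the 15 without it, Itga5 in 29 and 14, and Icam1 in 25 and 11. Itgb3 was detected in 27 of 31 (87.1%, 70.2 to 96.4) and in 9 of 15 (60%, 32.3 to 83.7), with overlapping intervals. Cd48, a leukocyte adhesion gene, was detected in 20 of the 31 and in 2 of the 15.

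**Figure D2:**
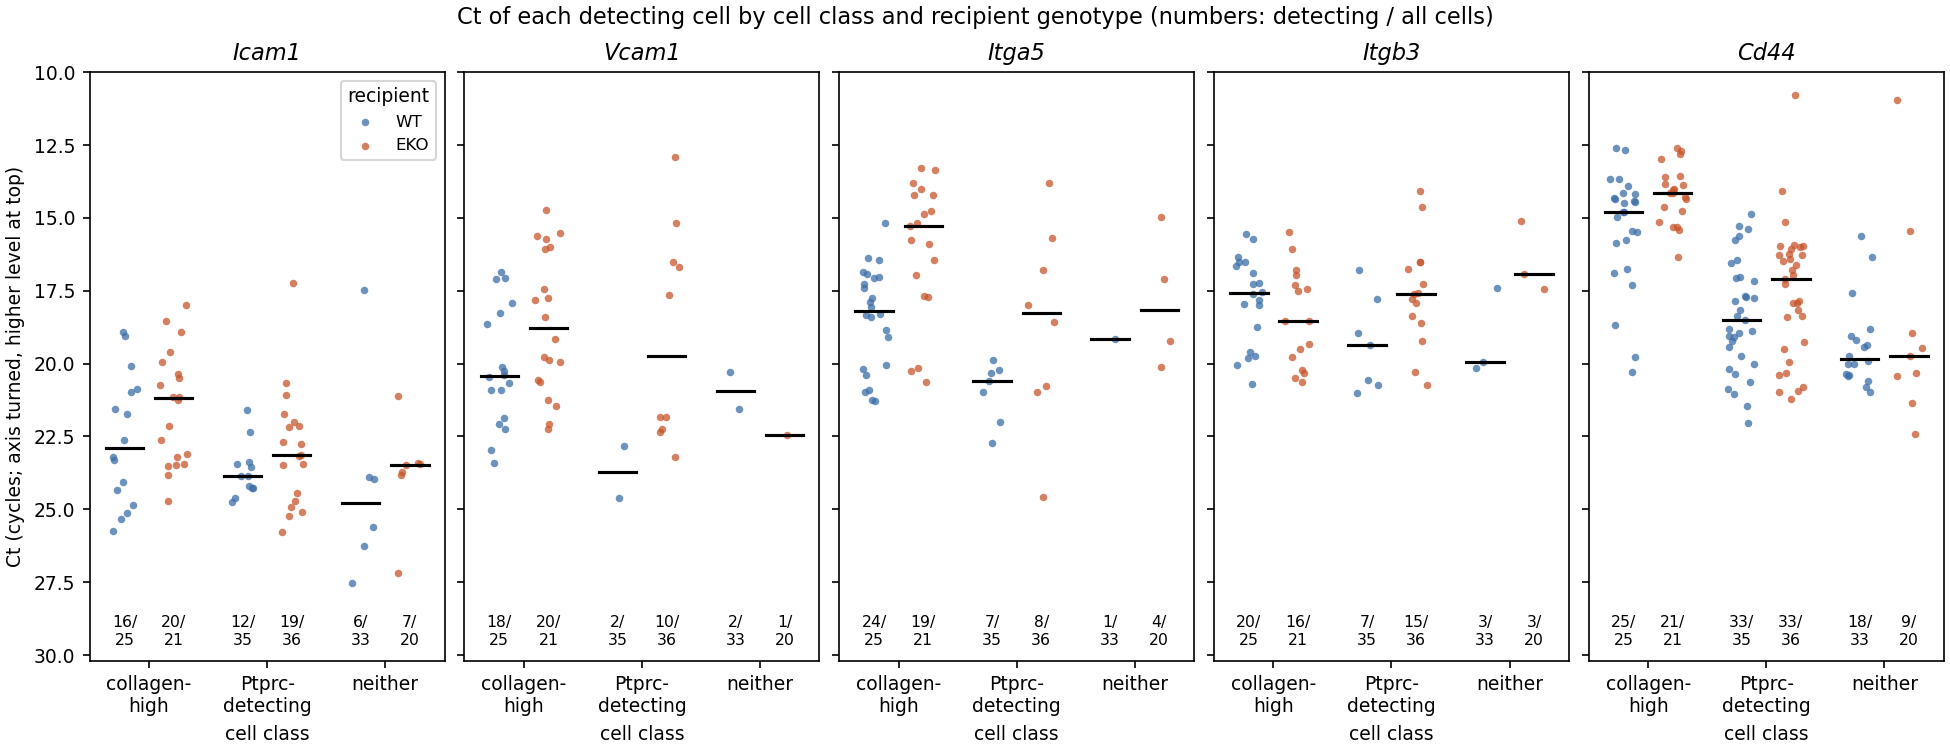
Ct (cycles, y axis turned so that higher levels are at the top) of every detecting kept cell, by cell class and recipient genotype (WT blue, EKO orange); lines are medians and the numbers give detecting over all cells. The EKO points of Itga5 in collagen-high cells centre on 15.28 and the WT points on 18.19, while Cd44 separates the classes more than the genotypes.

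Between the genotypes, more of the kept cells from EKO recipients detected Icam1, Vcam1 and Itgb3, while Cd44 was detected equally often. These shares depend on which cells are kept, as given below for all cells and for cells of higher yield. Icam1 was detected in 34 of 93 WT cells (36.6%, 26.8 to 47.2) and 46 of 77 EKO cells (59.7%, 47.9 to 70.8), a difference of 23.2 points. In set A 37.5% of WT and 56.4% of EKO cells detected it, and in set B the shares were 35.6% and 63.2%. The WT and EKO intervals of Icam1 narrowly miss each other over both sets (47.2 against 47.9). They cover counting error over cells only, and the kept EKO cells had the higher yield (medians of 34 and 21 assays). The share of all assays without overlap between the genotypes is not given here. Vcam1 was detected in 22 WT cells (23.7%) and 31 EKO cells (40.3%), 16.6 points apart (7.85 in set A, 25.6 in set B). Itgb3 was detected in 30 WT cells (32.3%) and 34 EKO cells (44.2%), 11.9 points apart (14.9 and 8.77). Itga5 was detected in 32 WT (34.4%) and 31 EKO cells (40.3%), 5.85 points apart. Cd44 was detected in 76 WT (81.7%) and 63 EKO cells (81.8%). Thus 3 of the 5 genes were called higher in EKO and none lower, against 20.8% and 0.0% of the 96 assays. The median difference was 11.9 points over the 5 genes and 5.70 over all assays.

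With no filter, over 96 cells of each genotype, the Cd44 share was 79.2% in WT (76 cells, 69.7 to 86.8) against 66.7% in EKO (64 cells, 56.3 to 76), -12.5 points in each set, and was called lower in EKO. Icam1 stayed called higher (35.4% against 49%, 13.5 points). Vcam1 (9.38 points) and Itgb3 (4.17 points) were not called. Of all assays 6.25% were called higher and 7.29% lower. The filter had set aside 19 EKO and 3 WT cells, so the equal share of Cd44 and the calls of Vcam1 and Itgb3 hold for kept cells alone.

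**Figure D3:**
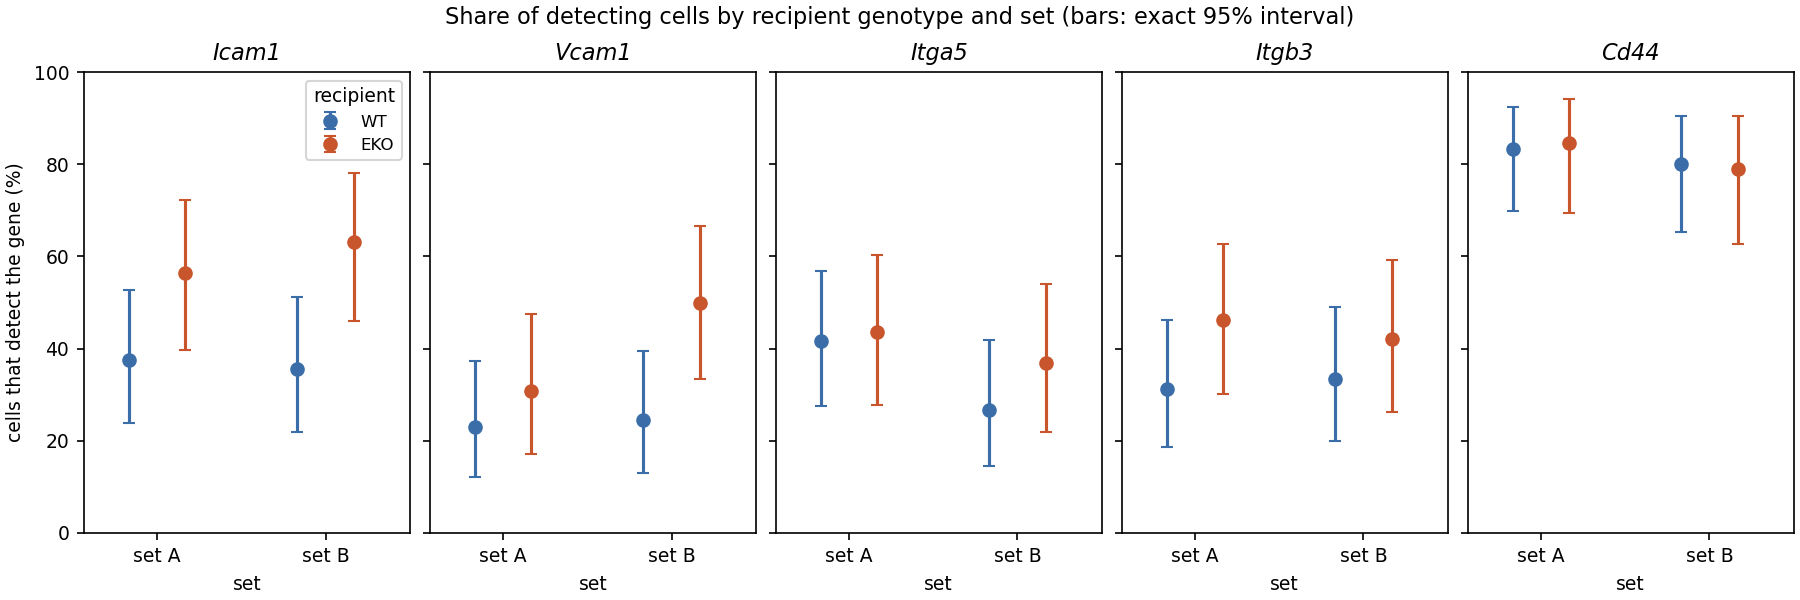
Share of kept cells (percent, y axis) that detect each gene, by set (x axis) and recipient genotype (WT blue, EKO orange); bars are exact 95% intervals over cells. Icam1 is higher in EKO in set A (56.4% against 37.5%) and set B (63.2% against 35.6%), and Cd44 is near 80% in all groups.

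Among the 42 WT and 53 EKO cells with at least 24 assays, where the median yields were 46.5 and 45 assays, the picture differed. Icam1 was at 66.7% in WT and 77.4% in EKO, still called higher (17.5 points in set A, 2.78 in set B), as were 4.17% of the assays. Vcam1 was at 50% against 56.6% and Itgb3 at 64.3% against 64.2%, and neither was called. Itga5 turned: 32 of 42 WT cells (76.2%, 60.6 to 88) and 29 of 53 EKO cells (54.7%, 40.5 to 68.4) detected it, -21.5 points and lower in both sets, as were 11.5% of the assays. Collagen-high cells, of which 93.5% detected Itga5, made up 25 of the 42 WT and 21 of the 53 EKO cells. Over all assays the median difference in these cells was -0.07 points.

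With at least 36 assays, 34 WT and 36 EKO cells were left, with median yields of 50 and 51 assays. Icam1 was at 67.6% and 88.9%, 21.2 points apart, and Vcam1 at 58.8% and 72.2%, 13.4 points apart (12.1 and 12.3 in the sets). Both were called higher in EKO, as were 13.5% of the assays, with 8.33% lower. Itga5 differed by -4.58 points with opposite signs in the sets, and among the cells with 40 or more assays 93.1% of WT and 93.3% of EKO cells detected it. Itgb3 differed by -1.63 points and Cd44 by -2.78. Among the 5 genes Icam1 was the one called higher at each of the 4 limits. Of the other assays, Bcl2 and Wnt3a were also called higher at each of them. The limits share cells, so repeated calls are not independent of each other. The lower Itga5 share in EKO was called at 24 assays alone.

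Within collagen-high cells, which had similar yields in both genotypes (medians of 51 assays in WT and 53 in EKO), both immunoglobulin-family ligands were more frequent in EKO. Icam1 was detected in 16 of 25 WT cells (64%, 42.5 to 82) and 20 of 21 EKO cells (95.2%, 76.2 to 99.9), 29.5 points apart in set A, 22.2 in set B. Vcam1 was detected in 18 of 25 (72%, 50.6 to 87.9) and 20 of 21 (95.2%), 37.5 and 3.97 points apart in the sets. The intervals overlap for both genes. Itga5 (24 of 25 and 19 of 21) and Itgb3 (20 of 25 and 16 of 21) had opposite signs in the sets, and Cd44 was detected in every cell. So 2 of the 5 genes were called higher, against 12.5% of the assays higher and 8.33% lower.

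Within Ptprc-detecting cells, the yields differed (medians of 21 assays in 35 WT cells and 30.5 in 36 EKO cells). Vcam1 was detected in 2 of 35 WT (5.71%, 0.70 to 19.2) and 10 of 36 EKO cells (27.8%, 14.2 to 45.2), Itgb3 in 7 (20%) and 15 (41.7%), and Icam1 in 12 (34.3%) and 19 (52.8%). All 3 were called higher in EKO, as were 35.4% of the assays in this class, with 2.08% lower. With at least 24 assays, 14 WT and 28 EKO cells were left: Vcam1 was at 14.3% against 35.7% and Itgb3 at 42.9% against 53.6%, but Icam1 was at 71.4% against 64.3%. The higher Icam1 share of EKO in this class was thus not seen among its cells of higher yield.

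The 12 Ptprc-detecting cells with Vcam1, 10 of them EKO, all detected Cd48. None detected Pdgfra, which only 2 of the 71 cells of this class detected, but 7 detected Col3a1, 5 Col1a1 and 5 Col1a2. Of these 12, 4 detected at least 4 of the 7 endothelial markers on the panel (Pecam1, Cdh5, Kdr, Flt1, Tek, Tie1 and Nos3), 4 the myeloid integrin gene Itgam and 6 Kit. Of the 59 Ptprc-detecting cells without Vcam1, 30 detected Cd48, 28 Col3a1, 26 Col1a1 and 21 Col1a2, and none had 4 endothelial markers. Their median yields were 41.5 and 24 assays. The part of yield and of endothelial-marker cells in these counts was not tested.

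**Figure D4:**
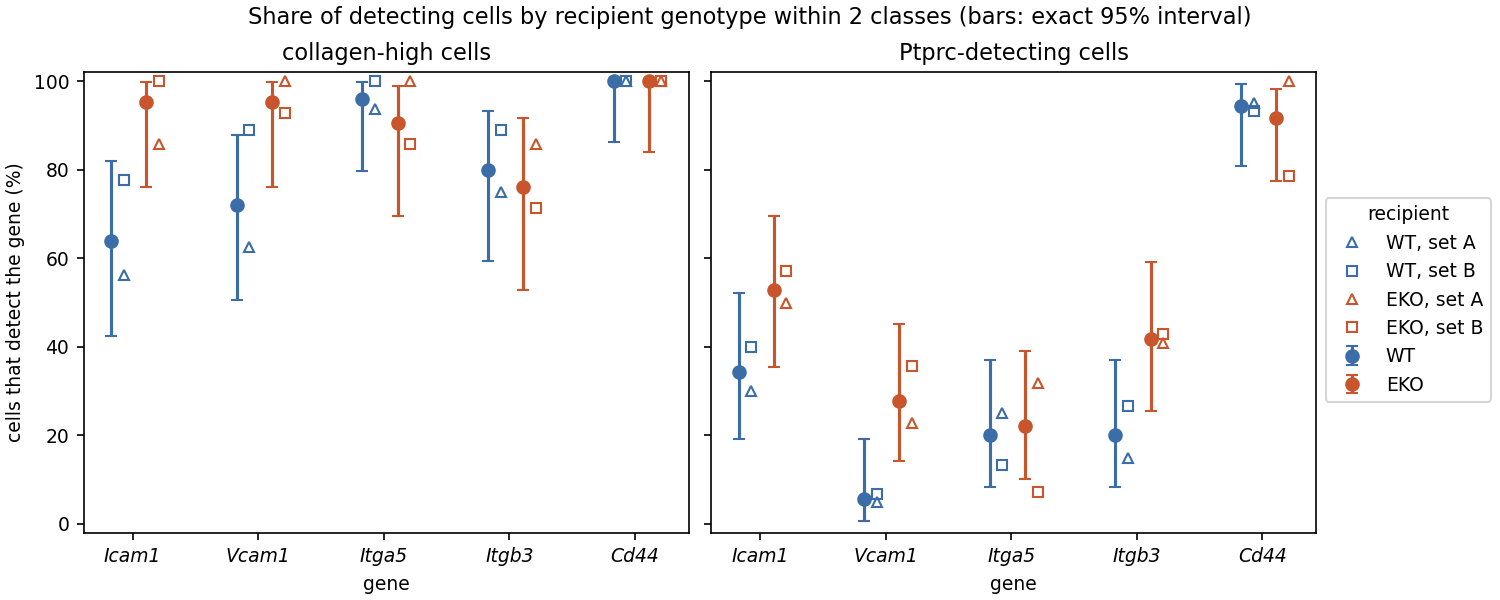
Share of cells (percent, y axis) that detect each gene (x axis) in WT (blue) and EKO (orange) recipients, within collagen-high cells (left) and Ptprc-detecting cells (right); filled points with exact 95% intervals pool both sets, and open triangles and squares are sets A and B. Icam1 and Vcam1 reach 95.2% in collagen-high EKO cells, against 64% and 72% in WT.

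In level, Itga5 showed the largest genotype difference of the 5 genes. Its Ct in WT cells ran from 15.17 to 22.71 with a median of 18.95 ± 1.89 (SD, 32 cells), and in EKO cells from 13.27 to 24.56 with a median of 16.44 ± 2.81 (SD, 31 cells). The EKO median was earlier by 2.51 cycles (2.29 in set A, 3.35 in set B). Vcam1 had medians of 20.55 ± 2.16 (SD, 22 cells) and 19.14 ± 2.86 (SD, 31 cells), a difference of -1.40 cycles (-3.13 and -0.51), and Cd44 of 17.79 ± 2.45 (SD, 76 cells) and 16.26 ± 2.77 (SD, 63 cells), a difference of -1.54 (-0.38 and -2.64). These 3 genes were called earlier in EKO, as were 33.8% of the 68 assays tested, while 8.82% were called later. Icam1 differed by -0.94 cycles and Itgb3 by -0.30, and the median of all tested assays was -0.81. The Cd44 call was lost with at least 24 assays, at -0.19 cycles (0.30 in set A, -0.20 in set B), and with at least 36, at -0.81. Itga5 stayed called at both limits (-3.06 and -2.53 cycles), as did Vcam1 (-1.66 and -2.64). Of the assays tested 18.2% were earlier and 10.6% later at the first limit, and 20.6% and 7.94% at the second. Each of the differences over all kept cells was smaller than the SD between cells of either genotype, except that of Itga5, which exceeded the WT SD and not the EKO SD.

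The Itga5 difference was also present within collagen-high cells. There the 24 WT cells ran from 15.17 to 21.30 with a median of 18.19 ± 1.74 (SD), and the 19 EKO cells from 13.27 to 20.63 with a median of 15.28 ± 2.33 (SD). Set A had an EKO median of 15.76 against 18.31 in WT, and set B one of 15.23 against 17.87. The ranges overlap, but the upper quartile of the EKO cells, 17.33, lay close to the lower quartile of the WT cells, 17.06. Set against the mean of Actb and B2m in the same cell the difference was -2.14 cycles, and against the cell's own median Ct -2.24. Within this class Vcam1 (-1.64 cycles; -0.21 in set A, -1.78 in set B) and Icam1 (-1.72; -1.90 and -0.05) were also called earlier in EKO, each resting mainly on 1 set. Set against Actb and B2m, Vcam1 differed by -2.69 cycles and Icam1 by -0.65, the latter with opposite signs in the sets (-1.06 and 0.81). So 3 of the 5 genes were called earlier here, as were 32.1% of the 53 assays, while 11.3% were called later. Within this class Itga5 thus had a lower Ct in EKO cells and was not detected in more of them. Of the reference genes, the median Ct of Actb was earlier in EKO by 0.84 cycles in this class, and that of B2m later by 1.02.

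Itgb3 went the other way in level within collagen-high cells. Its median Ct was 17.58 ± 1.51 (SD, 20 cells) in WT and 18.54 ± 1.67 (SD, 16 cells) in EKO, later by 0.96 cycles (0.88 in set A, 0.85 in set B), which is under the 1 cycle of a call. In Ptprc-detecting cells it was 19.36 ± 1.60 (SD, 7 cells) in WT and 17.60 ± 1.81 (SD, 15 cells) in EKO, earlier by 1.76 cycles (1.69 and 2.19). Cd44 was called earlier in EKO within Ptprc-detecting cells (17.10 ± 2.25 against 18.50 ± 1.90, -1.40 cycles), as were 31.4% of the 35 assays, with 5.71% later. Set against Actb and B2m that difference was -0.35 cycles.

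The genes were often detected together. Of the 170 cells, 23 detected none of the 5 genes, 45 detected 1, 31 detected 2, 21 detected 3, 21 detected 4 and 29 detected all 5. All 5 were found in 24 of the 46 collagen-high cells (10 of 25 WT, 14 of 21 EKO) and in 4 of the 71 Ptprc-detecting cells (0 of 35 WT, 4 of 36 EKO). Cells with the other genes but without Cd44 were few: 1 of 63 Itga5-detecting cells, 2 of 64 with Itgb3, 2 of 53 with Vcam1 and 6 of 80 with Icam1. Most cells with any of the other 4 genes thus also detected Cd44, but so did 139 of all 170 cells (81.8%). With at least 24 assays, 95.8% of all cells detected Cd44. The shares there were 95.7% of the cells with Icam1, 98.0% with Vcam1, 98.4% with Itga5 and 98.4% with Itgb3.

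**Figure D5:**
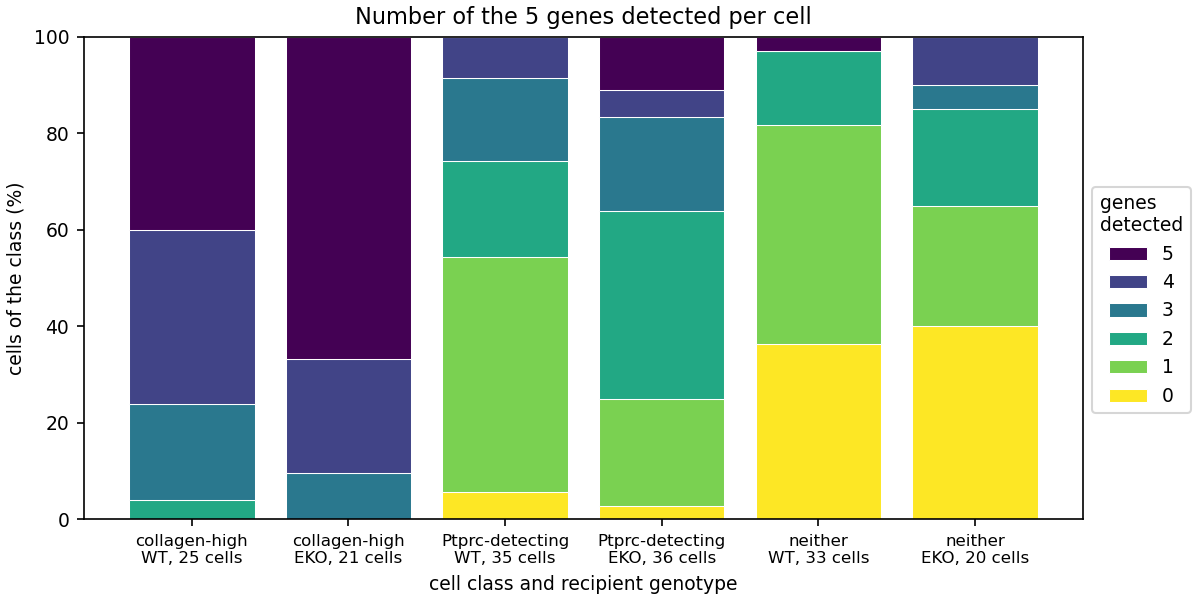
Number of the 5 genes detected per cell, as the percent of cells (y axis) in each class and recipient genotype (x axis); colours give 0 to 5 genes. All 5 genes are detected in 40% of WT and 66.7% of EKO collagen-high cells.

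Co-detection was measured by the phi coefficient, a correlation of 2 yes-or-no values over cells. It is given as a description since the cells share yield, class and set. Vcam1 with Itga5 had the highest phi of the pairs among the 4 genes other than Cd44 (0.59 over 170 cells, 42 cells with both), and Icam1 with Itgb3 the lowest (0.39). Among the 95 cells with at least 24 assays these were 0.41 and 0.08. The median of the 6 pairs was 0.23 there, against 0.11 for the 2016 pairs of the 64 assays that 10 to 90% of these cells detected. Within collagen-high cells Icam1 with Vcam1 had a phi of 0.31, Vcam1 with Itga5 0.11, and the other 4 pairs lay between -0.10 and 0.07.

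The assays whose detection was most like each gene differed between them, over the same 95 cells. For Vcam1 they were Timp1, a metalloproteinase inhibitor (0.60), the growth factor Igf1 (0.53) and the Cxcl12 scavenging receptor Ackr3 (0.51). For Itga5 they were Ackr3 (0.68), Timp1 (0.66) and Cd34 (0.57), which were detected in 95.7%, 97.8% and 89.1% of collagen-high cells. For Itgb3 they were the complement regulator Cd55 (0.48), Timp2 (0.48) and Cd34 (0.44), and within the 46 collagen-high cells its phi was 0.72 with Cd55 and 0.49 with Cd34. For Icam1 they were Vcam1 (0.28), the TGF-beta co-receptor gene Eng (0.27) and Cdh5 (0.23): all 12 of these cells with Cdh5 detected Icam1. Within collagen-high cells most of the other likenesses were near 0: Itga5 had a phi of -0.06 with Ackr3, -0.04 with Timp1 and -0.09 with Cd34, Vcam1 one of 0.32 with Timp1, 0.17 with Igf1 and -0.10 with Ackr3, and Icam1 one of -0.05 with Eng and 0.11 with Cdh5. Cd44 was left out, because 95.8% of the cells detected it. In level, Itga5 and Cd44 varied together over cells (Spearman rho 0.67 over 43 collagen-high cells, as a description), but both also varied with Actb in that class (0.57 and 0.55).

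Of 31 genes of adhesion and leukocyte traffic that were listed, 15 were measured, the 5 genes included. By share, 8 were called higher in EKO and none lower, with a median difference of 11.1 points, beside 20.8% and 0.0% of all assays and a median of 5.70. Besides Icam1, Vcam1 and Itgb3 these were Cd47, the "do not eat me" signal (53.8% against 72.7%), Cd48 (32.3% against 49.4%), Cd34 (25.8% against 40.3%), the Cxcl12 receptor Cxcr4 (25.8% against 39%) and Mcam (3.23% against 14.3%). With at least 24 assays 2 were called higher and 1 lower, beside 4.17% and 11.5% of all assays. Between the classes, 8 of the 15 were higher in collagen-high cells, near the 55.3% of all assays, and Cd48, Itgam and Cxcr4 were lower there. Of 14 listed matrix ligands, matrix regulators and integrin partners, 9 were measured, and Timp1 alone was called higher in EKO (26.9% against 44.2%) and none lower. The usual partners of both integrin chains, Itgb1 and Itgav, were not analysed here.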

How the data were processed

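The authors deposited 1 table of values per assay and cell, in another unit than counts, read here as raw Ct: 12852 of 18432 reactions are exactly 40 and none is higher. The sources used here do not give the instrument, threshold or preamplification. Genotype came from the labels' genotype field and the set from the letter of each cell's title. The 5 genes, gene lists, classes and tests were chosen with earlier results of these data known. Named genes were the 5 genes, the measured genes of both lists, class markers, reference genes and, per gene, the 3 assays with the highest phi. The other assays called higher in EKO at every limit on yield were also named.

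For each assay, shares of detecting cells with exact Clopper-Pearson 95% intervals, median Ct with its SD over cells, differences between genotypes and classes, and phi were computed with Python 3.11.15, pandas 2.3.3 and SciPy 1.17.1. All 96 assays were processed alike to give the background. The difference code was tested on simulated cells: over 50 draws a set change of 30 points came back as 29.5. Gene names were matched to RefSeq symbols of GRCm38.p6 (88 of 96 names, 5 more by synonym). Of the 5 genes, 3 had an upstream window in the table. Alternatives were other limits on yield, Ct, Col1a1 and Ptprc, each set, genotype or class alone, and other Ct scalings. The limit of 36 assays and the set without endothelial-marker cells were added after the data were seen.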

Additional observations from a re-analysis of the deposited data

Results flagged for a closer look

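The Itgb3 Ct moved in opposite directions between the genotypes in the 2 cell classes. In collagen-high cells the EKO median was later by 0.96 cycles and in Ptprc-detecting cells it was earlier by 1.76, in set A and set B alike, so that the classes differed by 2.72 cycles. This difference was not tested, and in Ptprc-detecting cells it rests on 7 WT and 15 EKO cells. Median yields there were 21 and 30.5 assays, and their part in it was not tested.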

How the results depend on the processing

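All 45 alternative values of the genotype difference in Ct moved by less than the counting or cell-to-cell spread, and none reversed the sign of a called difference. The same held for 57 of 60 of that in share and 74 of 80 of the class difference in share. Of the other values, 2 genotype and 2 class differences in share reversed the sign of a called difference, whether within the spread or not. The remaining 1 and 4 moved beyond the spread. Calls still ended within that spread: Cd44 in Ct with at least 24 assays (-0.19 cycles), and Vcam1 (9.38 points) and Itgb3 (4.17) in share without a filter on cells, where Cd44 was called lower (-12.5). The counts include alternatives that could not differ. No Ct of the 5 genes below 40 exceeded 27.53, so Ct limits of 35 and 30 changed nothing. No cell of either class was set aside, so leaving out the filter changed no class share. For Ct, the spread was the SD between cells, which exceeded the difference itself for each gene except Itga5. With at least 24 assays per cell the genotype difference in share was -21.5 points for Itga5 and -0.13 for Itgb3, the class difference was 11.6 points for Icam1 and 28.3 for Itgb3, 52.6% of cells (29.4% of all kept cells) detected at least 4 of the 5 genes, and the median phi was 0.23. In collagen-high cells alone the Itgb3 genotype difference was -3.81 points. With at least 36 assays the class difference was -0.69 points for Icam1 and for Itgb3, 45.8 for Vcam1 and 51.4 for Itga5. These limits leave out cells of low yield; the cause of each change was not tested. Without the 9 cells that had at least 4 endothelial markers, none of these values moved beyond the counting or cell-to-cell spread. No paired analysis was possible because no label ties a WT cell to an EKO cell. A gene not detected in a cell of few assays may be below what such a cell can show.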

Other observations

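The 9 kept cells that detected at least 4 of the 7 endothelial markers, 7 of them EKO cells of set A and only 1 collagen-high, carried most of the adhesion genes. Icam1, Itga5 and Itgb3 were detected in all 9 (exact 95% interval 66.4 to 100%), Cd44 in 8 and Vcam1 in 6, at a median of 56 assays per cell. These genes were frequent in cells of high yield in general. Of all 59 cells with 40 or more assays, 78% detected Icam1, 93.2% Itga5, 79.7% Itgb3, 98.3% Cd44 and 74.6% Vcam1. Tek, the angiopoietin receptor, was detected in 23 kept cells, of which 15 were collagen-high, and all 23 detected Itgb3. Of the 104 cells with no endothelial marker, 34 detected Icam1, 20 Itgb3, 21 Vcam1, 23 Itga5 and 76 Cd44, at a median of 18 assays.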
